A study of Mus spretus with 19 samples.

Results

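The Reg family lectins are small secreted proteins built around a C-type lectin fold. The array carried 6 of their genes, Reg1, Reg2, Reg3a, Reg3d, Reg3g and Pap (an older name of Reg3b), each read by 1 probe, out of 27845 genes and transcripts. They were selected by symbol, and they were chosen because their levels differed widely between sites. The site differences of these 6 genes are therefore given as a description, with no test.

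The livers came from male Mus spretus, the Algerian mouse, trapped at 5 sites in southwest Spain. PS stands for the phosphogypsum stacks. DR1, DR4 and DR6 lie on the Domingo Rubio stream, in its lower, its medium and its upper course, and the labels describe all of these places as polluted. SOL, the Santa Olalla lagoon, is labelled unpolluted. No laboratory treatment, allele or age is given in the labels. RNA of 9 mice per site was pooled, and the pool was measured on 4 arrays, 3 at DR6, for 19 arrays in all. Each array of a pool started from its own cDNA synthesis, so the spread between arrays is technical and leaves out the spread between mice. All arrays of a site shared 1 slide and 1 scan, so that site, pool and slide cannot be told apart. The probes were designed for Mus musculus, and the effect of sequence differences in Mus spretus on their signal was not tested.

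As background, Reg proteins are made mainly by acinar cells of the exocrine pancreas and by epithelium of the intestine. Reg1 and Reg2 are secreted in pancreatic juice and were first described in connection with regenerating islets. Pap is known as the pancreatitis-associated protein, and its transcript rises steeply in injured acinar cells. In mouse intestine, Pap and Reg3g act against bacteria, and interleukin-22 and interleukin-6, acting through the transcription factor Stat3, are known inducers. Healthy hepatocytes are not a usual source of these transcripts.

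The 6 probes are printed because they are the only reads of the family on the array, and because related genes might share signal through similar probes. Capitals mark the longest stretch that a probe shares with any other of the 6, and the sequences were taken from the deposited scanner files.
Pap: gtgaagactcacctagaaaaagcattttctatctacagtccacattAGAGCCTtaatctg
Reg3d: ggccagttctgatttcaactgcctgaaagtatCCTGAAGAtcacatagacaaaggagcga
Reg3a: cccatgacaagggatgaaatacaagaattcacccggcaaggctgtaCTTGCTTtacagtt
Reg2: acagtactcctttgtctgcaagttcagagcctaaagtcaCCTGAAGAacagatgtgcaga
Reg1: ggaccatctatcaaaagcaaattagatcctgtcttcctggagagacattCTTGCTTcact
Reg3g: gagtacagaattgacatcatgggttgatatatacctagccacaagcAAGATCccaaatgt

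Over the 15 pairs of probes the longest shared stretch was 5 to 8 of 60 bases, the longest being that between Reg2 and Reg3d. All 6 probes lie in 1 cluster on chromosome 6 of the mm8 mouse build, in the order in which they are printed. Pap was read at chr6:78302838-78302897 and Reg3d at chr6:78305521-78305580. Reg3a was read at chr6:78313150-78313209 and Reg2 at chr6:78337474-78337533. Reg1 was read at chr6:78358042-78358101 and Reg3g at chr6:78395935-78395994. Reg3d and Reg3g are on the minus strand and the other 4 on the plus strand. The probes span 93157 bases, and their GC content ran from 38.3% in Pap to 45.0% in Reg3d, Reg3a and Reg2. The only other probes within 1 Mb, those of 6330415B21Rik and Ctnna2, were too dim to enter the fit. The exon or untranslated region under each probe was not looked up here.

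Levels below are multiples of the 75th percentile of the gene spots on the same array, a scale on which 1 stands for a fairly bright spot. Levels of different genes come from different probes and are not ranked against each other. Between 52.0% and 61.5% of an array's gene spots were well above background, and the number of arrays limits the precision. The labelled tissue was checked with hepatocyte markers, and all 13 measured markers were well above background on all 19 arrays.

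Pap had levels of 5.64, 5.72, 4.87 and 4.59 on the PS arrays and 18.7, 19, 19 and 17.1 on the DR1 arrays. At DR4 it had 0.826, 0.835, 0.890 and 0.817, and at DR6 10.8, 9.90 and 9.56, against 0.775, 0.995, 0.754 and 0.785 at SOL. Levels fell into separate ranges, high at DR1 and DR6, intermediate at PS, and low at DR4 and SOL, whose arrays overlapped. The highest and the lowest site mean were 22.4-fold apart. Fitted log2 differences from SOL, with standard errors (SE), were 2.66 ± 0.090 at PS, 4.49 ± 0.090 at DR1, 0.03 ± 0.090 at DR4 and 3.62 ± 0.097 at DR6.

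Reg3a, a lectin of the same subfamily, followed the same order of sites. Its levels were 0.760, 0.766, 0.720 and 0.805 at PS and 2.36, 2.38, 2.23 and 2.11 at DR1. DR4 had 0.0662, 0.0819, 0.0608 and 0.0724 and DR6 had 0.905, 0.968 and 0.991, against 0.0542, 0.0599, 0.0626 and 0.0650 at SOL. PS, DR1 and DR6 did not overlap with each other or with the low pair of DR4 and SOL, and only 2 of the 4 SOL arrays were well above background. The site means spanned 37.6-fold, the widest range among the members measured above background at every site on at least some arrays. The fitted difference from SOL was 3.66 ± 0.083 at PS, 5.23 ± 0.083 at DR1, 0.21 ± 0.083 at DR4 and 3.98 ± 0.089 at DR6 (log2 ± SE). With normexp background correction and quantile scaling these were 1.37, 2.44, 0.05 and 1.54, so that the sites kept their order but not the size of their difference.

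Reg3d, which in the mouse is known from pancreatic islets and acinar tissue, was much dimmer. It had 0.1, 0.101, 0.121 and 0.118 at PS and 0.336, 0.341, 0.353 and 0.150 at DR1. It had 0.0270, 0.0543, 0.0185 and 0.0440 at DR4 and 0.184, 0.239 and 0.218 at DR6, against 0.0251, 0.0183, 0.0177 and 0.0211 at SOL. No SOL array and only 1 DR4 array was well above background. Against SOL only bounds can be given, at least 1.99-fold higher at PS, at least 5.04-fold at DR1 and at least 3.84-fold at DR6. DR1 and DR6 overlapped, through 1 DR1 array at 0.150.

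Reg3g, whose product binds the cell wall of Gram-positive bacteria, was well above background at 2 sites alone. Its levels were 0.319, 0.165, 0.244 and 0.162 at DR1 and 0.121, 0.147 and 0.162 at DR6. On all 12 arrays of PS, DR4 and SOL it was not well above background, with signals of 0.01 to 0.0167 at PS, 0.00866 to 0.0238 at DR4 and 0.0104 to 0.0222 at SOL. Reg3g was at least 3.86-fold higher at DR1 and at least 2.57-fold higher at DR6 than at SOL, and DR1 and DR6 touched at their edges. At PS Reg3g was at least 4.28-fold lower than at DR1 and at least 2.86-fold lower than at DR6. A lower level at PS was not particular to Reg3g, since all 6 Reg genes were lower there than at DR1. Pap was −1.83 and Reg3a −1.57 at PS against DR1, and −0.96 and −0.32 against DR6 (log2). Pap and Reg3a at PS stood far above those of SOL. For Reg3g, not well above background at PS or SOL, no such comparison can be made.

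Reg2, a pancreatic acinar product, had 38.5, 38.4, 37.6 and 38.0 at PS and 91.5, 92.0, 84.3 and 92.7 at DR1. It had 15.6, 14.8, 14.7 and 15.3 at DR4 and 58.4, 57.3 and 54.2 at DR6, against 18.9, 16.6, 14.6 and 16.4 at SOL. The order was again DR1, DR6, PS and then the overlapping pair of SOL and DR4, but over a narrower range of 5.97-fold. The fitted difference from SOL was 1.20 ± 0.063 at PS, 2.44 ± 0.063 at DR1, −0.13 ± 0.063 at DR4 and 1.77 ± 0.068 at DR6 (log2 ± SE).

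Reg1, the founding member of the family, was ordered differently. It had 19.3, 18.6, 19.1 and 18.2 at PS and 62.7, 41.3, 67.1 and 76.1 at DR1. It had 7.87, 8.72, 8.90 and 8.99 at DR4 and 73.7, 73.6 and 77.3 at DR6, against 41.7, 33.7, 36.6 and 38.6 at SOL. SOL lay in the middle of the order, above PS and DR4, without overlap. DR1 was scattered from 41.3 to 76.1 and overlapped with both DR6 and SOL. The fitted difference was −1.0 ± 0.13 at PS, 0.68 ± 0.13 at DR1, −2.13 ± 0.13 at DR4 and 0.99 ± 0.14 at DR6 (log2 ± SE).

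**Figure D1:**
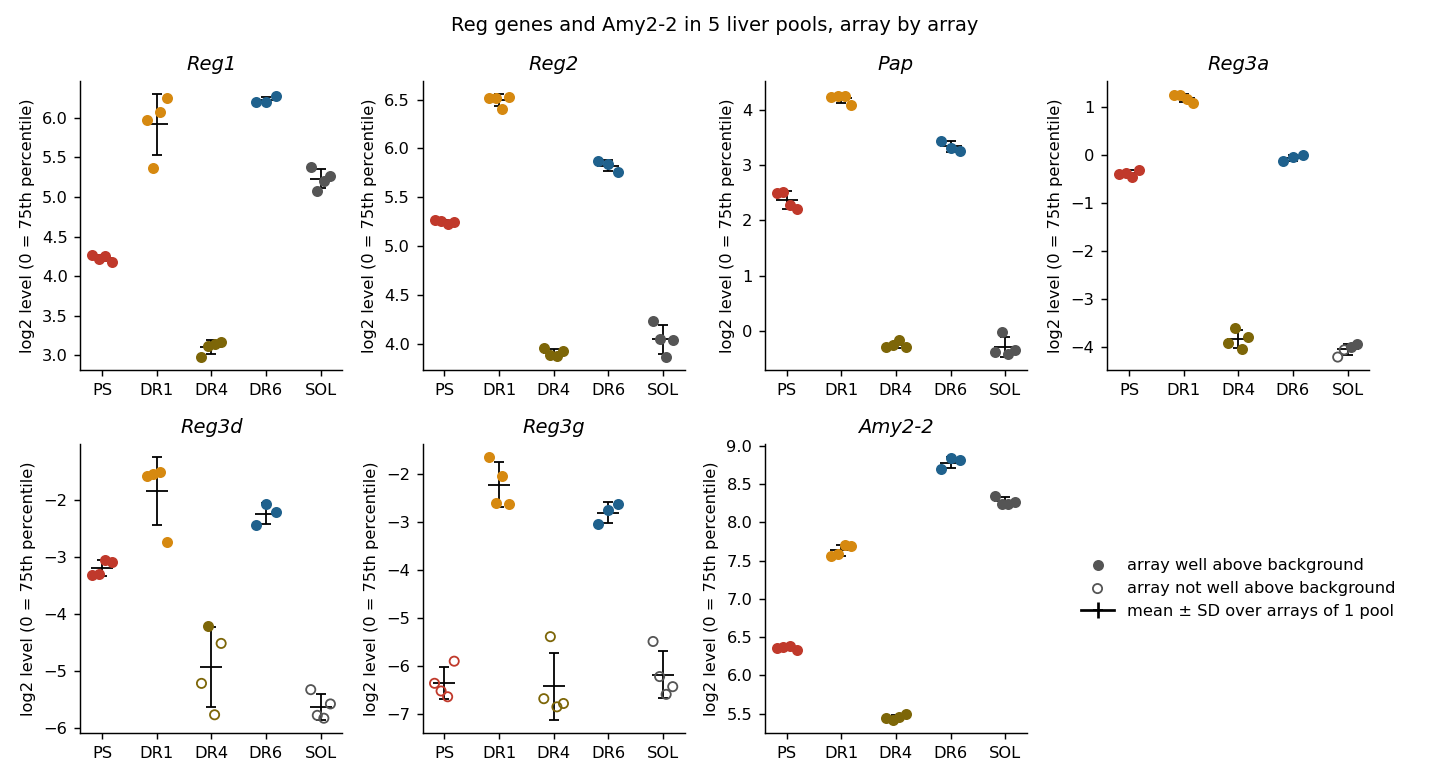
Log2 level of each Reg gene and of Amy2-2 on each array, on a scale where 0 is the 75th percentile of the array, by site from PS at the left to SOL at the right. Filled points are arrays well above background and open points are not, bars are mean ± SD over the arrays of 1 pool (n = 4, and 3 at DR6), and the vertical axes differ between panels. Pap, Reg3a and Reg2 share the order DR1, DR6, PS and then DR4 and SOL, while Reg1 and Amy2-2 are lowest at DR4 and PS.

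Counted at a fitted change of 2-fold, with no test, 4 of the 6 Reg genes were higher at PS than at SOL and 0 lower, where 2.43% of all genes were higher and 2.28% lower by this rule. The 4 at PS include Reg3d by its fitted value, while its bound there, at least 1.99-fold, falls short of 2-fold. At DR1 5 were higher and 0 lower (3.63% and 2.66% of all genes). At DR4 0 were higher and 1, Reg1, was lower (5.73% and 5.15% of all genes). At DR6 5 were higher and 0 lower (5.08% and 2.34% of all genes). Reg1 at PS and at DR6 sat at the edge of this limit, and at PS 1 gene was lower without SOL array 2, SOL array 3, PS array 1 or PS array 3. With normexp and quantile scaling 3 genes were higher at PS, where Reg3d no longer passed, and 3 at DR1 and 3 at DR6, where neither Reg3d nor Reg3g passed. With Reg3d and Reg3g at their bounds where they have one, and left out where they have none, the median log2 difference was 1.2 over 5 genes at PS, 2.39 over 6 at DR1, −0.05 over 4 at DR4 and 1.86 over 6 at DR6. The median over all genes lay between −0.05 and 0.01. Since the family was chosen on these contrasts, the counts carry no weight beyond description. They also share the SOL arrays.

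Along the stream, the lower and upper courses held more Reg transcript than the medium course in all 6 genes. For DR1 against DR4 the log2 difference was 4.45 in Pap, 5.02 in Reg3a, 2.58 in Reg2 and 2.81 in Reg1, and Reg3g was at least 5-fold higher. For DR4 against DR6 it was −3.58 in Pap, −3.77 in Reg3a, −1.91 in Reg2 and −3.12 in Reg1, and Reg3g was at least 3.33-fold lower. Reg3d, above background on 1 of 4 DR4 arrays, is given no size here: its highest DR4 signal was 0.0543, and its lowest level was 0.150 at DR1 and 0.184 at DR6. In those pairs the share of all genes past 2-fold was 3.12% higher for DR1 against DR4 and 3.87% lower for DR4 against DR6. The pancreatic enzymes taken up below ran the same way along the stream. Over 22 of them the median log2 difference was 2.19 for DR1 against DR4 and −3.27 for DR4 against DR6. DR1 and DR6 were closer to each other, with DR1 over DR6 at 1.25 in Reg3a, 0.87 in Pap, 0.67 in Reg2, 0.58 in Reg3g, 0.39 in Reg3d and −0.31 in Reg1.

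The digestive enzymes of the pancreas were set beside the Reg genes, since acinar cells make both. Amy2-2, pancreatic amylase, had levels of 82.4, 82.5, 83.4 and 80.4 at PS and 189, 192, 208 and 207 at DR1. It had 43.3, 42.7, 44.2 and 45.1 at DR4 and 416, 459 and 450 at DR6, against 326, 303, 302 and 308 at SOL. The order of its sites was DR6, SOL, DR1, PS and DR4, with no overlap between neighbours. SOL, where Pap and Reg3a were lowest or tied for lowest, was thus the second highest site for amylase.

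Of the 26 listed acinar enzyme genes 22 were measured, and all 22 were well above background on all 19 arrays. At PS 21 of the 22 fell against SOL and 0 rose (limma, adjusted p over all genes and at least 2-fold), with a median of −2.02, where 2.18% of all genes fell and 2.23% rose by the same rule. At DR4 all 22 fell, with a median of −3.05 (5.10% of all genes fell and 5.43% rose). At DR1 5 fell and 0 rose, with a median of −0.84 (2.55% of all genes fell and 3.53% rose). At DR6 limma called 0 in either direction, with a median of 0.21, against 4.67% of all genes higher and 2.28% lower, and at an unadjusted p under 0.05 with no limit on size 11 were higher and 1 lower (24.1% of all genes higher and 26.9% lower). Of the 18 enzymes saturated on no DR6 or SOL array, 8 were higher and 1 lower by that rule. These p-values measure technical spread between arrays alone. The DR1 count was 3 without SOL array 1, without SOL array 2 or without DR1 array 4, and 8 without SOL array 4.

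Amy2-2 fell by 1.91 ± 0.049 at PS (limma, adjusted p = 2.79e-14) and by 2.82 ± 0.049 at DR4 (adjusted p = 1.42e-16). It stood at −0.64 ± 0.049 at DR1 and 0.51 ± 0.053 at DR6, both short of 2-fold. Ela2a, an elastase, was −2.47 at PS, −2.11 at DR1, −4.01 at DR4 and −0.33 at DR6 (log2). Ela1, another elastase, was −2.27, −0.49, −3.92 and 0.80 in the same order of sites. The lipase gene Cel was −2.40, −1.08, −3.47 and 0.20, and the chymotrypsinogen gene Ctrb1 −2.14, −1.40, −3.29 and 0.49. Amy1, the salivary and liver amylase, was saturated on 3 of the 4 SOL arrays, on all DR1 and all DR6 arrays, and its difference at PS (−0.54) is open to that.

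Of the 22 enzymes 4 were saturated on some array and 3 lacked a value on some array. Summed over the other 15, the enzyme level ran from 361 to 363 on the PS arrays, 839 to 875 at DR1, 183 to 187 at DR4 and 1820 to 1890 at DR6, against 1440 to 1580 at SOL. Summed over the 6 Reg genes, it ran from 61.7 to 64.3 at PS, 155 to 188 at DR1, 24.4 to 25.2 at DR4 and 142 to 144 at DR6, against 51.4 to 61.5 at SOL. The summed Reg level rests on Reg1 and Reg2, the brightest probes. In a bulk sample, fewer cells of a type and less RNA per cell cannot be told apart, nor can a fragment of another organ carried along with a liver be told from expression in the liver, and the part of either in the Reg values was not tested.

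**Figure D2:**
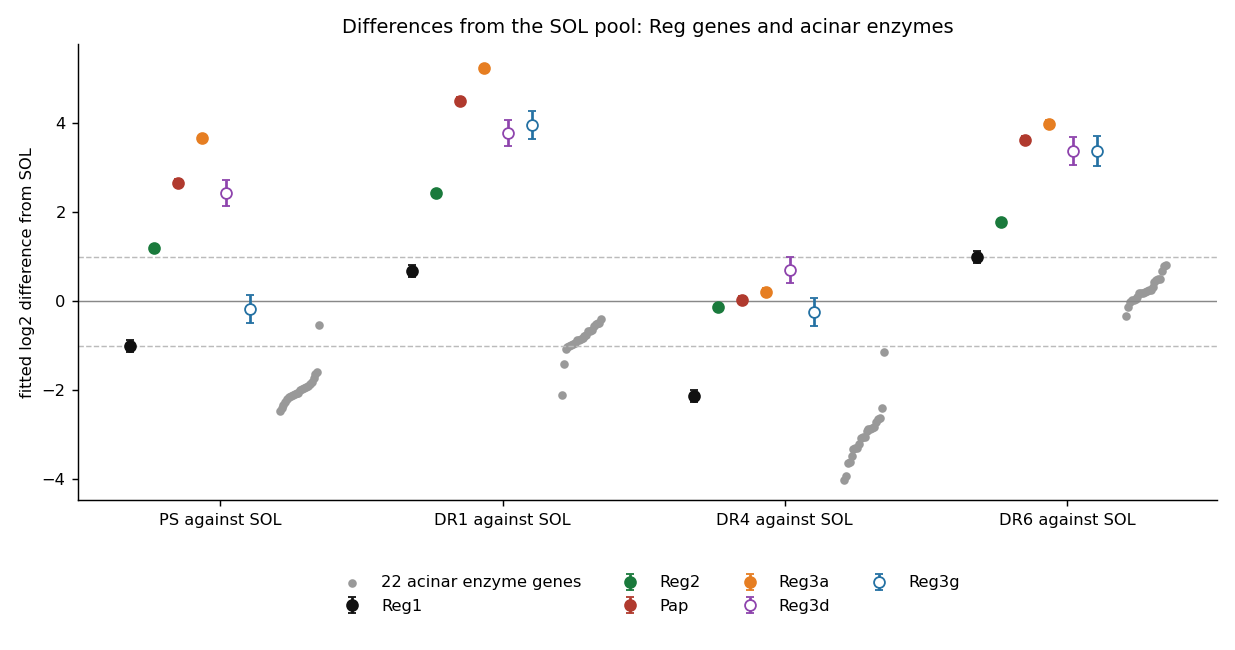
Fitted log2 difference from SOL (vertical axis) at PS, DR1, DR4 and DR6 (horizontal axis) for the 6 Reg genes with SE bars and for the 22 acinar enzyme genes as grey points. Open circles are Reg3d and Reg3g, which were not above background at SOL, so their fitted values are no measured size, and dashed lines mark 2-fold. At PS and DR4 the enzymes lie below the 2-fold line, apart from Amy1 at PS, while Pap, Reg3a and Reg2 lie above the enzymes at all 4 sites.

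The members were then placed on the scale of the enzymes themselves. On each array the mean log2 level of the same 15 enzyme genes, with Amy2-2 among them, was subtracted from each Reg gene, and the SOL mean was set to 0. The 15 enzymes had a mean log2 difference from SOL of −2.06 at PS, −0.91 at DR1, −3.22 at DR4 and 0.27 at DR6. On this scale any gene whose plain level did not change takes the value of the enzyme difference with its sign reversed. This measure was added after the data had been seen.

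On that scale Pap was 4.72 ± 0.17 at PS, 5.40 ± 0.07 at DR1, 3.25 ± 0.06 at DR4 and 3.35 ± 0.11 at DR6 (log2, mean ± SD over arrays), against 0 ± 0.16 at SOL. Reg3a was 5.72 ± 0.08 at PS, 6.14 ± 0.08 at DR1, 3.43 ± 0.19 at DR4 and 3.71 ± 0.05 at DR6, against 0 ± 0.15 at SOL. Both genes thus stood above SOL relative to the enzymes at every polluted site. At DR4 their plain levels overlapped those of SOL, so their relative values there come from the enzyme difference of −3.22 and show no rise of their own. At DR4 and DR6 the relative values were close, and those at PS and DR1 were higher, without overlap. With normexp and quantile scaling Reg3a was 3.34 at PS, 3.31 at DR1, 3.00 at DR4 and 1.31 at DR6 on this scale, and Pap 4.10, 4.78, 3.03 and 2.75.

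Reg2 was 3.26 ± 0.03 at PS, 3.35 ± 0.07 at DR1, 3.09 ± 0.03 at DR4 and 1.5 ± 0.07 at DR6, against 0 ± 0.13 at SOL. The PS, DR1 and DR4 pools, which are 5.97-fold apart at their extremes in plain Reg2 level, lay between 3.09 and 3.35 relative to the enzymes. Reg1 was 1.06 ± 0.04 at PS, 1.59 ± 0.39 at DR1, 1.09 ± 0.10 at DR4 and 0.72 ± 0.02 at DR6, against 0 ± 0.14 at SOL. Reg1 was the member nearest to the enzymes at each of the 4 sites among the 4 measured at SOL.

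Against Amy2-2 alone the differences were similar. Pap minus Amy2-2 was 4.57 at PS, 5.13 at DR1, 2.85 at DR4 and 3.11 at DR6. Reg3a minus Amy2-2 was 5.57, 5.87, 3.03 and 3.47 at the same sites, and Reg2 minus Amy2-2 was 3.12, 3.08, 2.69 and 1.26. Reg1 minus Amy2-2 was 0.91, 1.32, 0.69 and 0.48. No such value is given for Reg3d and Reg3g, whose SOL signals were not well above background.

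**Figure D3:**
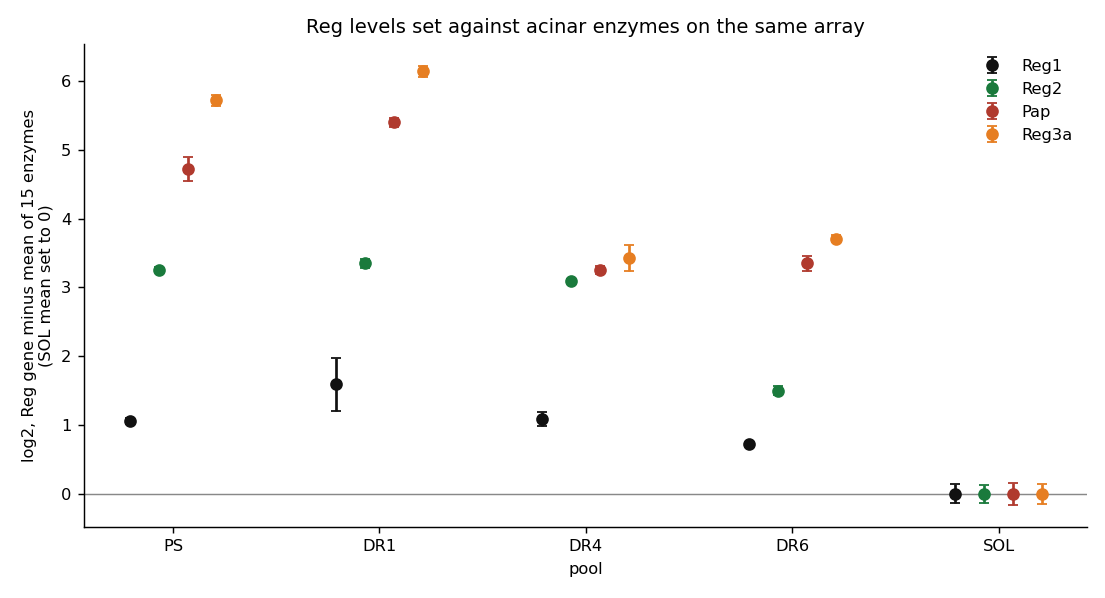
Log2 level of Reg1, Reg2, Pap and Reg3a minus the mean of 15 acinar enzymes on the same array, with the SOL mean set to 0 (vertical axis), for the 5 pools (horizontal axis). Points are means and bars SD over 4 arrays (3 at DR6). Pap, Reg3a and Reg2 lie above 0 at PS, DR1, DR4 and DR6, and Reg1 lies nearest to 0. At DR4 the plain levels of Pap, Reg3a and Reg2 overlapped those of SOL, and their height there comes from the lower enzymes.

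Among the other acinar proteins 11 of 14 listed genes were measured. At PS 10 fell and 0 rose (limma, adjusted p and 2-fold), at DR4 9 fell, at DR1 2 fell, and at DR6 1 rose. Of all genes 2.18% fell at PS, 5.10% at DR4 and 2.55% at DR1, and 4.67% rose at DR6. Gp2, a zymogen granule membrane protein, was −1.71 at PS, −1.19 at DR1, −2.93 at DR4 and 0.12 at DR6. Nupr1, a stress-induced gene of the inflamed pancreas, was the gene that rose at DR6, at 1.27 ± 0.11 (limma, adjusted p = 7.39e-08). It fell by 1.27 ± 0.098 at PS (limma, adjusted p = 3.29e-08), where Pap and Reg3a were high, and stood at −0.14 at DR1. Ptf1a, the transcription factor that defines acinar cells, was well above background on all 3 DR6 and all 4 SOL arrays, on 2 DR1 arrays, and on none at PS and DR4. Bhlhb8, another transcription factor of this list, did not share this pattern. It was well above background on all PS, DR4, DR6 and SOL arrays and on 3 of 4 DR1 arrays, and was called at no site. Rbpsuhl, a further one, was well above background on every array and fell at PS and DR4.

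Islet, intestine and stomach markers were read as well, since these tissues also express Reg genes or lie beside the pancreas. Of the 13 islet genes measured, 1 rose and 6 fell at PS, 3 rose and 1 fell at DR1, 1 rose and 5 fell at DR4, and 6 rose and 0 fell at DR6 (limma, adjusted p and 2-fold). The 6 that fell at PS include Pcsk1, which was not well above background on any PS or SOL array. By the same rule 2.23% of all genes rose and 2.18% fell at PS, and 3.53% and 2.55% at DR1. At DR4 5.43% of all genes rose and 5.10% fell, and at DR6 4.67% and 2.28%. Insulin Ins2 was −3.15 at PS, −0.17 at DR1, −2.54 at DR4 and 1.23 at DR6 (log2), and glucagon Gcg was not well above background on any PS array. Summed islet marker levels ran from 4.17 to 4.39 at PS, 4.78 to 6.53 at DR1, 2.07 to 3.63 at DR4 and 6.77 to 7.73 at DR6, against 3.14 to 3.80 at SOL. Part of the PS and DR1 sums comes from the granule protein Chgb, at least 46.6-fold higher at PS and at least 14.3-fold at DR1. The largest part of the DR1 and DR4 sums comes from Pyy, another gene of this list. Pyy rose at DR1, DR4 and DR6 by the rule above, and was not called at PS.

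Of 15 gut epithelial genes measured, 0 rose and 4 fell at PS, 0 rose and 3 fell at DR1, 1 rose and 5 fell at DR4, and 6 rose and 0 fell at DR6. The shares of all genes that rose at these sites were 2.23%, 3.53%, 5.43% and 4.67%, and 2.18%, 2.55%, 5.10% and 2.28% fell. The summed level of the 15 gut genes ran from 97.3 to 100 at PS, 89.6 to 112 at DR1, 51.6 to 58.5 at DR4 and 64.9 to 71.8 at DR6, against 102 to 123 at SOL. This sum rests on the brightest probes, those of Fabp2, Ang4 and Lzp-s, which stood at −0.93, −0.49 and −0.96 at DR6 (log2). The genes that rose at DR6 weigh little in it. The Paneth cell defensin Defa1, made beside Reg3g in the intestinal crypt, was not well above background on any PS or DR4 array, reached it on 2 DR1 arrays, and was 2.13 higher at DR6 than at SOL (log2). Defcr6, another Paneth cell defensin, was likewise 2.26 higher at DR6 than at SOL, and not well above background on any PS, DR1 or DR4 array. Lzp-s and Ang4 of the same list did not share this order. The lysozyme gene Lzp-s was 0.34 at PS, 0.40 at DR1, −0.03 at DR4 and −0.96 at DR6. Ang4, an antimicrobial ribonuclease, was 0.17, −0.19, −0.92 and −0.49. Cdx2, a transcription factor of intestinal epithelium, was well above background on the 3 DR6 arrays and on no other array. At DR1 Defa1 fell by 1.63 ± 0.23 (limma, adjusted p = 2.69e-05), while Agr2, a protein of mucus-secreting cells, stood at 0.81. The part of gut or islet RNA in the Reg values of any site was not tested. The stomach and Brunner gland peptide Tff2 was −2.66 at PS, −0.25 at DR1, −2.92 at DR4 and 0.88 at DR6. Of the 6 stomach genes measured 2 fell at PS and 1 fell at DR4, and limma called 0 at DR1 and DR6. At an unadjusted p under 0.05 by limma, 1 was higher and 3 lower at DR1, and 2 were higher at DR6. By that rule 27.6% of all genes were higher and 26.3% lower at DR1, and 24.1% were higher at DR6. The summed level of the 6 stomach genes ran from 1.01 to 1.23 at PS, 2.14 to 2.51 at DR1, 0.966 to 1.29 at DR4 and 4.37 to 4.73 at DR6, against 2.57 to 3.08 at SOL.

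The interleukin-6, interleukin-22 and Stat3 list covers the known inducers of Reg3 genes and the acute-phase response of the liver. Of 35 genes measured, 5 rose at PS, 5 at DR1, 5 at DR4 and 4 at DR6, where 2.23%, 3.53%, 5.43% and 4.67% of all genes rose, and limma called 0 falls (adjusted p and 2-fold). Between 5 and 7 of the 35 were saturated on some array of the sites compared, and such genes cannot show their full change. Among the 29, 28, 30 and 30 left, 5, 4, 5 and 4 rose, and 3, 7, 6 and 6 were lower at an unadjusted p under 0.05 with no limit on size, where 21.6%, 26.3%, 33.6% and 26.9% of all genes were. A2m, a protease inhibitor of the acute phase, rose by 3.82 ± 0.080 at PS, 3.32 ± 0.080 at DR1, 1.48 ± 0.080 at DR4 and 1.62 ± 0.087 at DR6. Saa3, a serum amyloid, was 2.15 at PS, 1.70 at DR1, 1.63 at DR4 and 0.61 at DR6. The iron hormone Hamp1 was 1.20, 1.95, 2.24 and 1.72 at these sites. None of these 3 genes shared the order of sites of Pap: at DR4 all 3 rose by more than 2-fold while Pap stood at 0.03. The part of these inducers in the Reg values was not tested. Lcn2 was at least 1.92-fold higher at DR1 than at SOL, and well above background on 3 of 4 DR1 arrays. It was well above background on 1 DR4 array and on no PS, DR6 or SOL array.

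Il6 itself was −0.19 at PS, −0.34 at DR1, 0.05 at DR4 and −0.33 at DR6, and Stat3 ran from −0.07 to 0.31, with no call (limma). Socs3, the feedback inhibitor that Stat3 induces, was −0.14 at PS, 0.25 at DR1, 0.94 at DR4 and 1.36 at DR6, so that it passed the limit at DR6 alone. Il22 and Tnf were too dim to enter the fit. Extl3, a glycosyltransferase proposed as a receptor of Reg proteins, had mean levels of 9.51 at PS, 7.32 at DR1, 7.98 at DR4 and 7.77 at DR6, against 9.01 at SOL, and was not called at any site. Reg4, a family gene on chromosome 3 and outside the cluster, was well above background on 0 of 19 arrays.

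**Figure D4:**
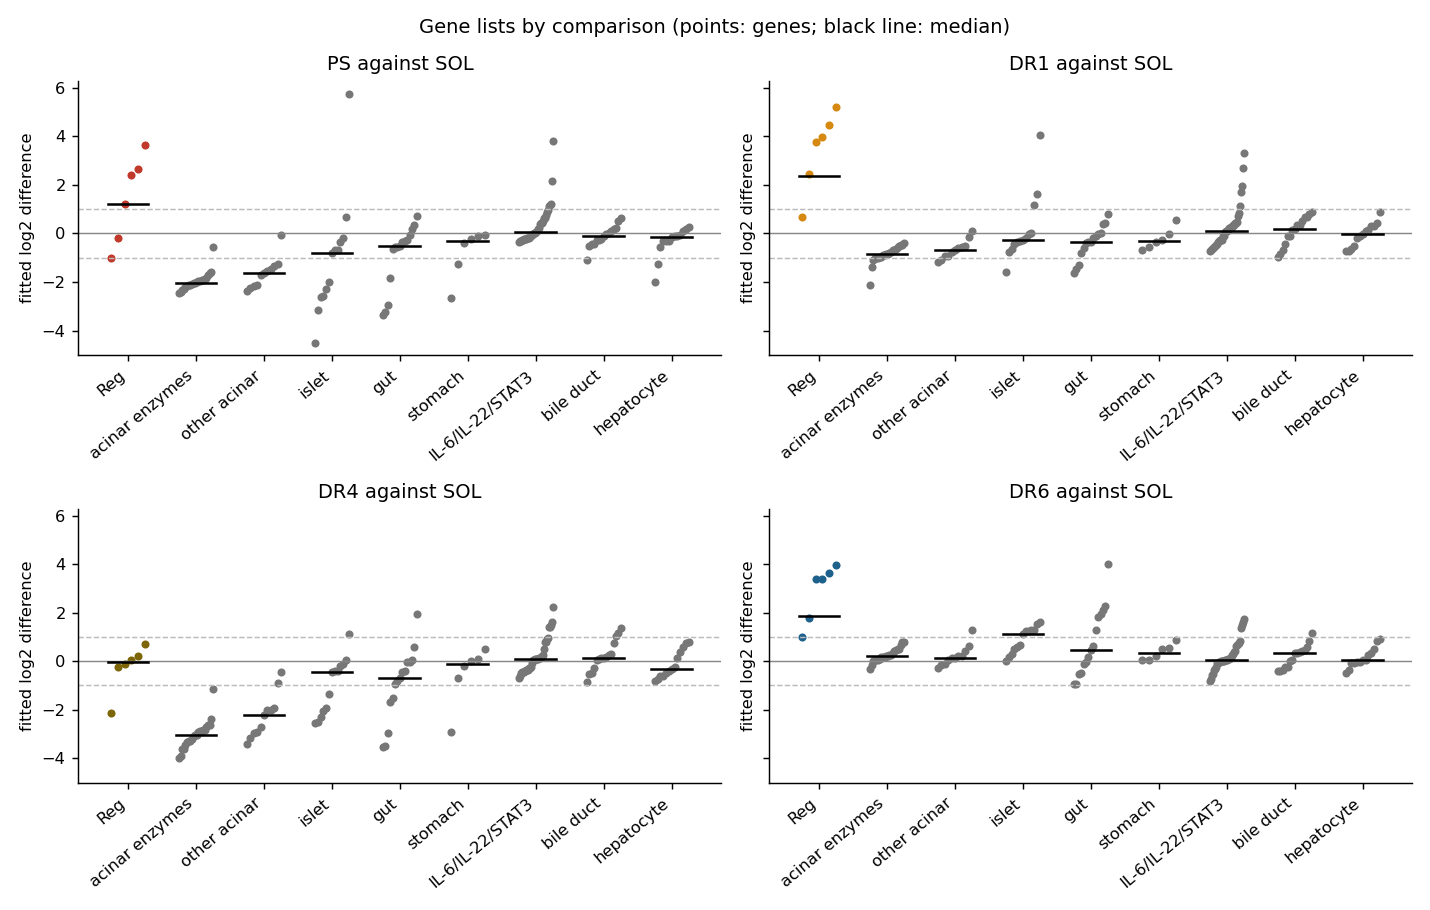
Fitted log2 difference from SOL (vertical axis) for the measured genes of each list (horizontal axis), in a panel per polluted site, with the list median as a black line and 2-fold as dashed lines; the Reg median has genes at background at SOL set at their bound. Genes at background at SOL, such as Chgb and Reg3g, appear at fitted values that are not measured sizes. The Reg median so computed is 1.2 at PS, 2.39 at DR1, −0.05 at DR4 and 1.86 at DR6, while the acinar enzyme median is −2.02, −0.84, −3.05 and 0.21.

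Bile duct and progenitor markers, which mark another epithelium of the liver, had 0 of 15 higher and 1 lower at PS, 0 and 0 at DR1, 3 and 0 at DR4, and 1 and 0 at DR6. Of all genes 2.23%, 3.53%, 5.43% and 4.67% were higher at these sites, and 2.18% were lower at PS. At DR1 7 of the 15 were higher and 2 lower at an unadjusted p under 0.05 by limma with no limit on size. By that rule 27.6% of all genes were higher and 26.3% lower there. The summed level of these 15 markers was 35.6 to 37.0 at PS, 32.3 to 36.2 at DR1, 37.1 to 37.9 at DR4 and 33.9 to 36.0 at DR6, against 32.7 to 36.0 at SOL. Hepatocyte markers had 2 of 13 lower at PS, Apob and G6pc, where 2.18% of all genes were lower. Among the hepatocyte markers limma called 0 at the other 3 sites. Between 4 and 6 of the 13 were saturated on some array of the sites compared. Among the 7, 9 and 9 left at DR1, DR4 and DR6, 4 were higher at each site and 1, 3 and 1 lower at an unadjusted p under 0.05. By that rule 27.6%, 26.2% and 24.1% of all genes were higher at these sites, and 26.3%, 33.6% and 26.9% were lower.

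Profiles over the 5 site means were compared by their root mean square difference in log2, after each gene was centred on its own mean, over 13455 candidate genes with a symbol. Within the family, Pap and Reg3a were nearest to each other at 0.37, followed by Pap and Reg3d at 0.45 and Reg2 and Reg3d at 0.56. Reg1 and Reg3a were farthest apart at 1.71. Outside the family, the gene nearest to Pap was Sftpc, a lung surfactant protein, at 0.27, which was also nearest to Reg3d at 0.24 and to Reg3a at 0.58. Like Reg3d, Sftpc was not well above background on the SOL arrays, and at DR4 it was above on none.

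The next genes were farther off: Retnla, a cytokine-like protein of alternatively activated macrophages, at 0.98 from Pap and 1.12 from Reg3a, and Trim15, at 1.03 and 1.24. For Reg3d they were Trim15 at 0.68 and 1700007K13Rik at 0.77. For Reg1 the nearest genes were Dmbt1, an acinar and mucosal glycoprotein, at 0.26, the kallikrein Klk1b4 at 0.32 and the pancreatic ribonuclease Rnase1 at 0.35, all 3 well above background on every array. For Reg2 they were Olfr102 at 0.37, 1700007K13Rik at 0.39 and Il10 at 0.41, none of them above background on all SOL arrays. For Reg3g they were Ccnb1 at 0.92, Cenpf at 0.95 and 2010107C10Rik at 0.95. With 5 points per profile, and with signals at background in several of them, likeness is a description of these pools.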

How the data were processed

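Cy3 intensity was measured on 19 one-colour Agilent arrays. Per the submitters' processing notes, the authors obtained the deposited intensity with Agilent Feature Extraction 9.5.3.1. Per the file headers the processed signal is background-subtracted and was not scaled between arrays. The deposited value table of the whole series holds the same linear intensity to 3 digits (largest relative difference 0.497%). The 75th percentile of an array ran from 99.47 to 285.2.

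Of 45018 spots, 1639 controls were left out. Log2 of the processed signal minus the array's 75th percentile was taken, spots flagged as outliers were dropped, and repeated spots averaged. Kept probes passed the well-above-background flag on 3 or more arrays of a site (23458 of 41174), and the brightest per gene used (16346 genes). Gene names and coordinates come from the mm8 annotation of the SOL files; probe sequences come from the DR1 files, made with an older design (mm7) and matched by probe.

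A mean per site was fitted with limma 3.58.1 (R 4.3.3), with Benjamini-Hochberg adjustment over all genes. A call needed adjusted p under 0.05 and 2-fold. "At least" marks a gene that no array of the lower site had well above background, set against the lowest signal that passed. The fit was tested on simulated data. No genome was used here.

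The members and the gene lists were chosen with earlier results of these data known. Named genes were all Reg genes, the 3 highest and 3 lowest of each list in a comparison with SOL, and the 3 genes of nearest profile. Il6, Stat3, Socs3, Il22 and Tnf were named for their role, after their values were seen. Alternatives changed the scaling, background correction, probe filter, probe choice, value table, replicate block and each array in turn.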

Additional observations from a re-analysis of the deposited data

Results flagged for a closer look

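Within each pool of 4 arrays the highest and the lowest Reg or Amy2-2 value were compared with the rest by Dixon's ratio of gap to range, and 5 of 28 such sets held an array past its critical value. Chance flags about 1 in 20 groups. At DR1 the log2 level of Reg2 was 6.4 on array 3, against 6.52 to 6.53 on the other 3. At DR1, array 4 had a Reg3d level of −2.74, against −1.58 to −1.5, and a Pap level of 4.09, against 4.23 to 4.25. At DR4, array 2 had a Reg3g signal of −5.39, against −6.85 to −6.68, and all 4 were not well above background. At SOL, array 2 had a Pap level of −0.01, against −0.41 to −0.35. The Reg3d value is the one that makes DR1 and DR6 overlap in that gene.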

How the results depend on the processing

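The results were recomputed under 26 alternatives, of which 19 left out 1 array each, and no Reg difference of 2-fold or more changed sign. Near 0, Reg2 at DR4 stood at 0.02 with normexp and quantile scaling in place of −0.13, Pap at DR4 at −0.01 without SOL array 3, and Reg3g, below background there, changed sign between PS, DR4 and SOL. Of 1560 recomputed Reg differences 54 moved by more than 1 SD, 37 of them under normexp background correction with quantile scaling, 12 under median scaling and 5 under quantile scaling. With normexp and quantile scaling the count of Reg genes 2-fold higher was 3 in place of 5 at DR1 and 3 in place of 5 at DR6, as Reg3d stood at 0.80 and 0.55 and Reg3g at 0.71 and 0.47 there. The normexp setting adds an offset of 50 to every intensity, which by arithmetic shrinks log2 differences between dim signals. How much of the change comes from this offset was not tested. Calls over all genes under normexp and quantile scaling were 197 against 722 at PS, 246 against 994 at DR1, 599 against 1722 at DR4 and 275 against 1136 at DR6.

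Reg1 at PS lay at the 2-fold limit: the count of Reg genes lower was 1 under quantile scaling and 1 with the deposited value table. Leaving out 1 array gave 0 to 1 there, with 1 without SOL array 2, SOL array 3, PS array 1 or PS array 3. Leaving out 1 array gave 3 to 8 enzyme calls at DR1 in place of 5, with 3 without SOL array 1, SOL array 2 or DR1 array 4 and 8 without SOL array 4. Same-numbered arrays of different sites showed no uniform pairing: of 36 correlations of their deviations 14 passed 0.1 (−0.16 to 0.48). The highest were between SOL and DR1, at 0.48 for array 2 and 0.45 for array 3. For arrays 1 and 4 of these sites they were −0.15 and −0.16. With the replicate number as a block, 6 Reg genes were 2-fold higher at DR6 in place of 5, with Reg1 at 1.03, and enzyme calls were 21 at PS, 5 at DR1, 22 at DR4 and 0 at DR6. Signal over background limits Reg3d and Reg3g, which have only bounds at SOL. With 1 pool a site, no alternative measures the spread between mice.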
